A study of Mus musculus with 6 samples.

Results

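Voltage-gated sodium and calcium channels open when the membrane depolarizes and carry the inward currents that fire action potentials, shape dendritic signals and trigger transmitter release. A sodium channel is built from a large pore-forming alpha subunit (Scn genes whose symbol ends in a) and smaller beta subunits (symbol ending in b) that adjust gating and hold the channel at the axon. In calcium channels the pore-forming alpha1 subunit (Cacna1 genes) sets the current type. Outside the T-type (Cacna1g, Cacna1h and Cacna1i), the channel is built from alpha1 and auxiliary subunits. These are an intracellular beta subunit (Cacnb genes), which brings the channel to the membrane, and an extracellular alpha2delta subunit (Cacna2d genes), which raises its surface level. The gamma genes (Cacng) were named after a muscle channel subunit, although several of them encode TARPs, the auxiliary proteins of AMPA-type glutamate receptors. Granule neurons acquire excitability as they mature, and many of these genes bear on that part of the neuronal phenotype. Whether their levels move apart from identity markers was not tested. The members were all gene symbols of these families in the count tables, 39 of 55341 symbols: 10 sodium alpha, 4 sodium beta, 9 calcium alpha1, 4 alpha2delta, 4 calcium beta and 8 gamma genes. They were chosen by symbol alone, with no measured value in the rule.

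The libraries came from cultured cerebellar granule neurons (CGNs) of CD-1 IGS mice, an outbred stock, 3 given DMSO as the vehicle and 3 given GSK-126, which blocks the catalytic activity of EZH2, the enzyme that places the repressive histone mark H3K27me3. No allele was altered in either group. According to the study's methods, both groups were primary cultures from pooled early postnatal litters of both sexes, both received the mitotic inhibitor AraC on the second day in culture to limit dividing non-neuronal cells, and neurons were harvested on the fifth day; the labels give neither the dose nor the day of addition, which a code in the table names puts at the first day, and they give the tissue as cerebellum. The H3K27me3 level of these cultures was not analysed here, so the 2 groups are compared by their label.

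Each library held between 8058760 and 12047837 gene counts, of which 3 counts, the smallest amount treated as detectable, amount to 0.249 to 0.372 CPM (a gene's counts relative to all gene counts of its library, scaled here with TMM factors). All 9 granule neuron markers were at or above 1 CPM in all 6 libraries, but so were 7 of 8 astrocyte and 5 of 5 fibroblast markers, so the cultures were mixed. The summed granule marker level ran from 3301 to 4574 CPM in DMSO and from 2449 to 3574 CPM in GSK-126, and 4 of the 9 markers (Neurod1, Rbfox3, Gabra6 and Etv1) fell at an adjusted p under 0.05, while Tubb3 (log2 fold change 0.36), Barhl1 (0.39) and Pax6 (0.04) had positive values that did not pass. The summed fibroblast level ran from 6674 to 8743 CPM in DMSO and from 8774 to 9727 CPM in GSK-126, with 1 of 5 genes higher, and the summed endothelial and mural level ran from 479 to 750.0 CPM and from 831 to 1033 CPM, with 3 of 7 tested genes higher (Flt1 and the mural genes Pdgfrb and Acta2). Most of the endothelial and mural sum was Acta2, at 273, 418 and 505 CPM in DMSO and 555, 595 and 700 CPM in GSK-126. Of the endothelial genes Cdh5 had a log2 fold change of -0.30 and Kdr of -0.01, neither past the threshold, and Cldn5 was too low to be tested. The summed astrocyte level followed the replicate number, at 6611, 2029 and 3925 CPM in DMSO replicates 1, 2 and 3 and 6868, 2097 and 3485 CPM in GSK-126. Of 8 tested astrocyte genes 3 had a negative value, and Gdf10 (log2 fold change 0.94) was higher at an adjusted p under 0.05. GABAergic and Purkinje neuron markers summed to 233 to 296 CPM in DMSO and 202 to 227 CPM in GSK-126, without overlap. Of their 11 tested genes 8 were negative, and Slc32a1 (-0.58) passed. Oligodendrocyte lineage markers summed to 430 to 654 CPM and 494 to 781 CPM, with 3 of 8 negative and Cspg4 (0.89) higher past the threshold. Microglial markers summed to 180.1 to 292 CPM and 207 to 443 CPM, and precursor and cycling markers to 140 to 242 CPM and 168 to 230.2 CPM, with 0 genes past the threshold. The part that these differences in cell types played in the results below was not tested, and in bulk RNA fewer neurons and less RNA per neuron cannot be told apart.

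The 4 members that fell after GSK-126 (below) came from different roles and had unlike promoters, so their sequences are shown first. Each runs from 250 bases before to 50 bases after a transcript start listed by RefSeq (build GRCm38.p6), 5′ to 3′ on the gene's strand, with every CpG dinucleotide in capitals because CpG-rich promoters are the usual sites of H3K27me3. RefSeq promoters were matched for 29 of the 39 members, with 40 starts in all and a median of 10 CpG dinucleotides per promoter, beside 7 over all 32851 promoters.
Cacna1i, chr15:80286988-80287287, plus strand: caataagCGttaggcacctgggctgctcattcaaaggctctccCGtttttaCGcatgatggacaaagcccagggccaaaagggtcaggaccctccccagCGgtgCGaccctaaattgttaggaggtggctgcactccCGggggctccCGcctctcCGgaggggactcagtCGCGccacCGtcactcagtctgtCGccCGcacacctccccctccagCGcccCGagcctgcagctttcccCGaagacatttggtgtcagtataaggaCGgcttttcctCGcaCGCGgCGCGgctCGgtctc
Cacnb4, the first of 3 starts, chr2:52676094-52676393, minus strand: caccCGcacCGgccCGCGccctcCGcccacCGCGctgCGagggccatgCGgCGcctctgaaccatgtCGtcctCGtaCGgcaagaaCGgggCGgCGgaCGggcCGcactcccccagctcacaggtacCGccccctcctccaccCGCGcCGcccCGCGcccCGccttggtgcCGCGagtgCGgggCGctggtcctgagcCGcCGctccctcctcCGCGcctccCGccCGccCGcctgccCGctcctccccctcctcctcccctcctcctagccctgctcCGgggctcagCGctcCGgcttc
Cacnb4, the second start, chr2:52675810-52676109, minus strand: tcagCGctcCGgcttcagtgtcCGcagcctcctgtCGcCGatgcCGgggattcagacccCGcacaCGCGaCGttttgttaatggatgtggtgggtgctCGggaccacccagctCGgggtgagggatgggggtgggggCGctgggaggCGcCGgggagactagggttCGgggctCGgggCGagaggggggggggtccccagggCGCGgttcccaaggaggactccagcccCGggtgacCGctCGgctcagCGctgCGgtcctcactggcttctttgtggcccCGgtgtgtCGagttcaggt
Cacnb4, the third start, chr2:52558562-52558861, minus strand: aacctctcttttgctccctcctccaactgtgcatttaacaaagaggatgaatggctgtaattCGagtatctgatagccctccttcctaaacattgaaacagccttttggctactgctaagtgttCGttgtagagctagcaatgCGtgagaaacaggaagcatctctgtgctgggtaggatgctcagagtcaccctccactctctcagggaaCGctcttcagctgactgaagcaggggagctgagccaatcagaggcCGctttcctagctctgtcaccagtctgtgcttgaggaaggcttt
Scn2a, the first of 2 starts, chr2:65620519-65620818, plus strand: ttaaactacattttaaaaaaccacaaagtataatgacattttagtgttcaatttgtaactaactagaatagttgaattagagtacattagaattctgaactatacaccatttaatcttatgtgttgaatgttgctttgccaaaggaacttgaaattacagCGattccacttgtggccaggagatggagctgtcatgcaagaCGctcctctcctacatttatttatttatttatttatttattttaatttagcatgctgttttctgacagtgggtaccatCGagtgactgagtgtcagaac
Scn2a, the other start, chr2:65668436-65668735, plus strand: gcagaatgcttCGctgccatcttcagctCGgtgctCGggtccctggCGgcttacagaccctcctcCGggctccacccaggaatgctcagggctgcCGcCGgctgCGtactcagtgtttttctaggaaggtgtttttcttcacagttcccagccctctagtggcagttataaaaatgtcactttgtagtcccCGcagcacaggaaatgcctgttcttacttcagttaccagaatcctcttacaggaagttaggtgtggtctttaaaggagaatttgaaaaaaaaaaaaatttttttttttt
Scn2b, chr9:45117626-45117925, plus strand: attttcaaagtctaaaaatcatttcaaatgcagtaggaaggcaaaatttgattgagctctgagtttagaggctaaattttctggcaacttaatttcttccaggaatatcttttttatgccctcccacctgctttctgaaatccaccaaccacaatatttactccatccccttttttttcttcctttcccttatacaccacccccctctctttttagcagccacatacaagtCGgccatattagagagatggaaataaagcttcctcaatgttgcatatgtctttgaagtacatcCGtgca

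The Cacna1i promoter held 23 CpG dinucleotides, the Cacnb4 promoters 40, 27 and 5, the Scn2a promoters 3 and 9, and the Scn2b promoter 2. Over all promoters these counts stood at percentiles 78.5, 96.1, 84.5, 38.0, 23.3, 54.2 and 14.1. Of the motifs searched on both strands, GGGCGG (the letters of a GC box) was in 15 of the 40 member promoters, 37.5%, beside 35.7% of all promoters, and in the first Cacnb4 promoter. The E-box letters CAGCTG were in 12 member promoters, 30.0%, beside 16.3% of all promoters, and among the printed ones in the third Cacnb4 promoter. TATAAA was in 2 member promoters (13.6% of all promoters), 1 of them the other Scn2a start. These matches are descriptions of letters in a window.

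Of the 39 members, 29 reached at least 1 CPM in at least 3 of the 6 libraries and were tested. The closest to that limit were Cacna1f and Scn9a on the inside, whose third-highest library stood at 1.07 and 1.24 CPM before TMM scaling, and Scn4b and Cacna2d4 on the outside, at 0.996 and 0.933 CPM. Of the tested members, Cacng3 reached 1 CPM in 3 DMSO libraries and 1 GSK-126 library, and Scn9a in 2 and 1. The other members outside included Scn11a, Scn4a, Scn10a, Cacng1, Cacng6, Cacng7 and Cacng8. Scn10a and Scn11a encode channels of pain-sensing neurons and Scn4a the skeletal muscle channel, and none exceeded 10 counts in a library. Scn11a had 2, 7 and 10 counts in DMSO and 0 counts in each GSK-126 library, and Scn4a had 2 counts in 1 library in all.

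Levels of different genes were compared as CPM per kilobase of annotated exon, in the DMSO libraries. Among sodium alpha subunits Scn2a (14.9 ± 4.04 CPM per kb, mean ± SD, n = 3) and Scn8a (12.8 ± 3.08 CPM per kb) led with overlapping ranges, and both were above Scn7a (3.21 ± 2.90 CPM per kb) without overlap. Scn3a (1.20 ± 0.346 CPM per kb), mainly an embryonic and early postnatal channel, and Scn1a (1.17 ± 0.242 CPM per kb), which is best known from inhibitory interneurons, overlapped each other, and Scn9a followed at 0.0937 ± 0.0468 CPM per kb. The sodium beta subunits Scn2b (8.70 ± 4.70 CPM per kb) and Scn3b (6.53 ± 0.421 CPM per kb) could not be ordered, since their ranges overlapped.

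Among calcium alpha1 subunits, Cacna1a, the P/Q-type subunit that is mutated in the ataxic tottering mouse, was the highest at 37.0 ± 9.77 CPM per kb and did not overlap the next gene. Cacna1b (N-type, 22.1 ± 4.33 CPM per kb), Cacna1g (T-type, 17.7 ± 5.70 CPM per kb) and Cacna1e (R-type, 16.5 ± 7.34 CPM per kb) overlapped in that order, as did the L-type subunits Cacna1d (9.19 ± 1.28 CPM per kb) and Cacna1c (8.55 ± 1.34 CPM per kb) and the T-type Cacna1i (8.08 ± 1.10 CPM per kb). The third T-type subunit, Cacna1h, stood at 0.411 ± 0.128 CPM per kb, and Cacna1f, the L-type subunit of the retina, at 0.124 ± 0.0779 CPM per kb. Every type of neuronal calcium current therefore had at least 1 alpha1 transcript above the limit.

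Of the alpha2delta genes, Cacna2d3 (16.4 ± 2.10 CPM per kb) and Cacna2d1 (14.0 ± 3.62 CPM per kb) overlapped, and Cacna2d2, mutated in the ducky mouse, was below both at 4.89 ± 1.65 CPM per kb. The calcium beta genes were ordered without overlap, from Cacnb3 (19.9 ± 2.49 CPM per kb) through Cacnb4 (11.3 ± 2.86 CPM per kb) and Cacnb1 (5.49 ± 0.610 CPM per kb) to Cacnb2 (0.320 ± 0.159 CPM per kb). Of the gamma genes Cacng4 (34.4 ± 15.1 CPM per kb), Cacng5 (19.8 ± 11.0 CPM per kb) and Cacng2 (17.8 ± 1.90 CPM per kb) overlapped in that order, and Cacng3 (0.833 ± 0.224 CPM per kb) was apart. With the longest transcript as the length, Cacna1e passed Cacna1g and Cacna1b, and Cacna1c passed Cacna1d. The leading pairs of the sodium alpha, alpha2delta, calcium beta and gamma genes kept their order.

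**Figure D1:**
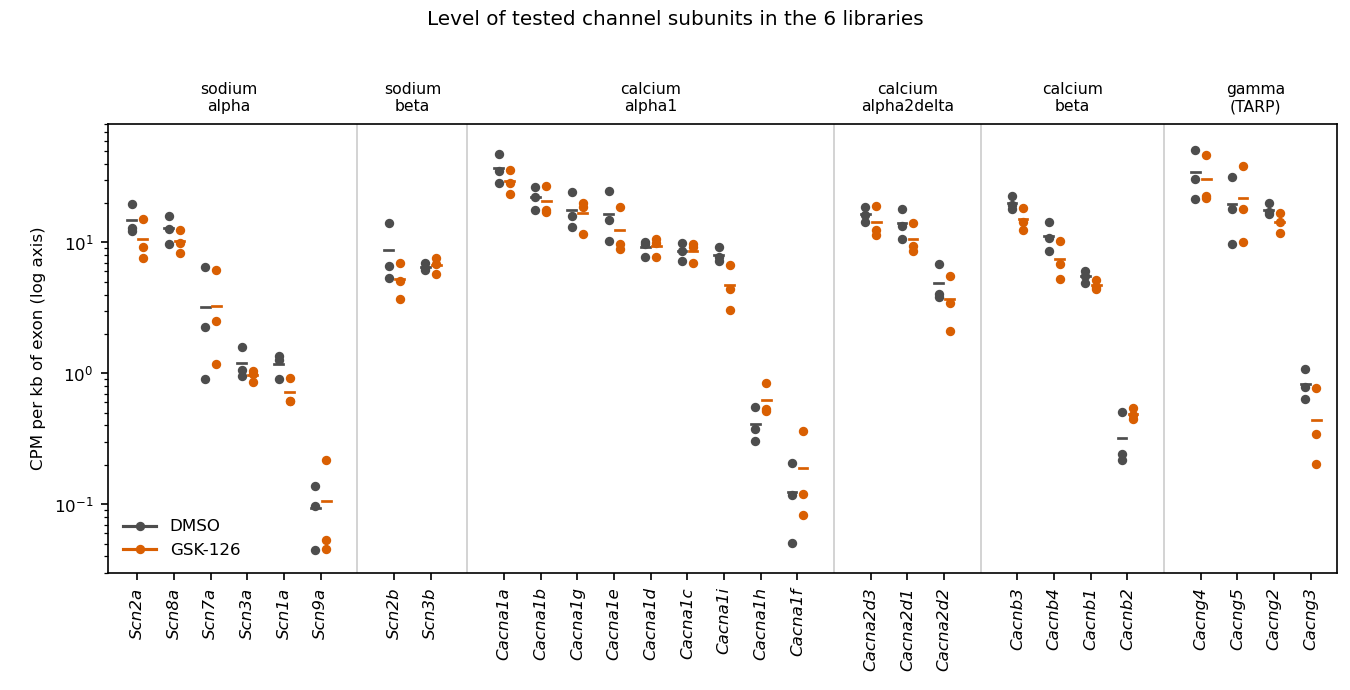
CPM per kilobase of exon (log axis) of tested subunits, grouped by role, with 1 point per library and a bar at the mean of the 3 DMSO (grey) and 3 GSK-126 (orange) libraries. Cacna1a was the highest gene of the DMSO libraries at 37.0 CPM per kb and Scn9a the lowest at 0.0937 CPM per kb, and the points of the groups overlap for every gene but Cacna1i.

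The comparison of GSK-126 with DMSO asked which subunits changed when EZH2 was blocked. With the replicate number as a block, 4 of 29 tested members, 13.8%, fell at an adjusted p under 0.05, beside 1.38% of all 16685 genes tested, and 0 rose, beside 2.23% of all genes. The members that fell were Cacna1i, Cacnb4, Scn2a and Scn2b, an alpha and an auxiliary subunit from each channel family. Cacna1i is a T-type subunit, so it and Cacnb4 need not belong to the same channel. Without the block, 0 members passed, as did 0.0% of all genes, while 3 members (Cacna1i, Cacnb3 and Scn1a) had an unadjusted p under 0.05, 10.3% of the members beside 5.97% of all genes. DESeq2 with the block called 4 members and without it called 0.

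**Figure D2:**
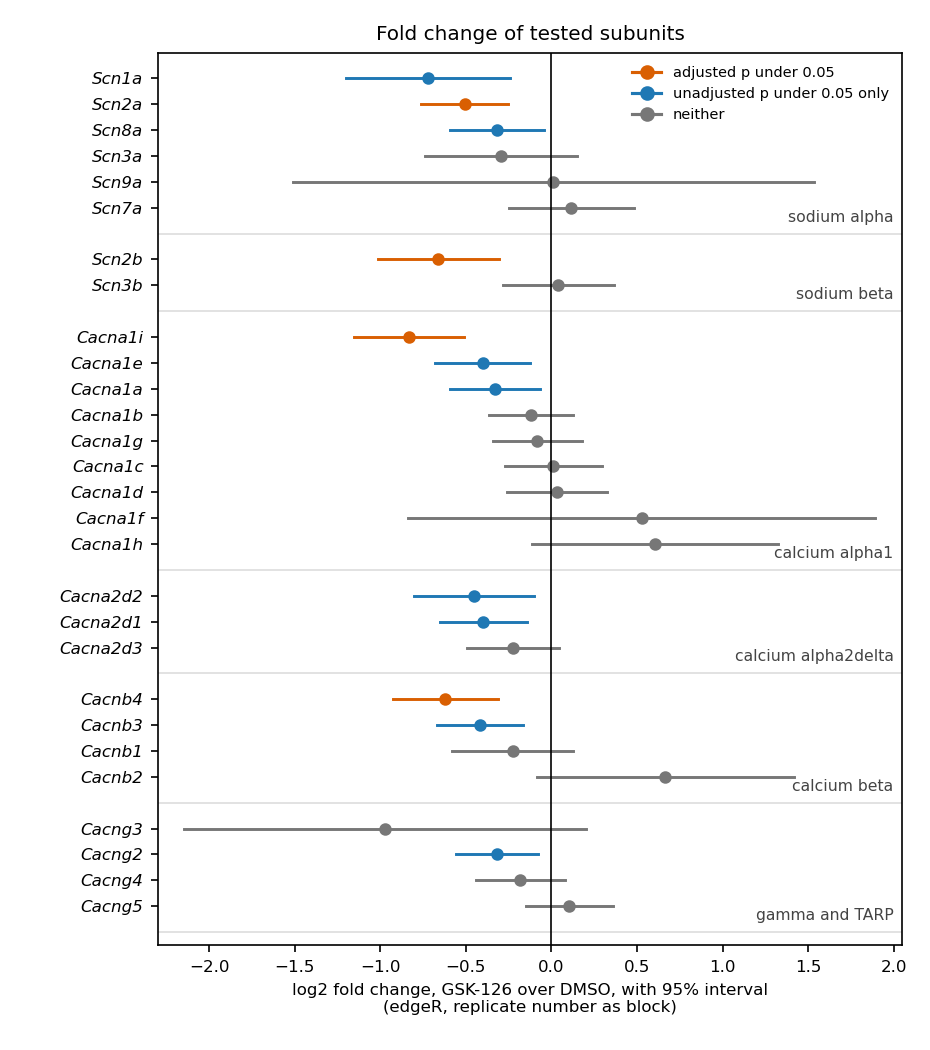
log2 fold change of GSK-126 over DMSO with its 95% interval for tested members, by role, from edgeR with the replicate number as a block. The 4 orange points passed an adjusted p of 0.05 and all lie left of 0. The blue points drawn, which had an unadjusted p under 0.05 alone, lie on the same side. Not every tested member is drawn.

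At an unadjusted p under 0.05, 12 members, 41.4%, were lower, beside 7.31% of all genes, and 1 member, 3.45%, was higher, beside 9.15% of all genes. In all 3 replicate pairs 13 members, 44.8%, were lower, beside 19.2% of all genes, and 0 were higher, beside 19.6% of all genes. The CPM of the groups did not overlap for 1 member, Cacna1i, 3.45% beside 5.43% of all genes, and every other tested member had overlapping groups. The median log2 fold change was -0.23 over the tested members and -0.00 over all genes, and 19 members had a negative and 10 a positive value. By role the median was -0.31 for sodium alpha (4 of 6 negative), 0.04 for sodium beta (1 of 3), -0.08 for calcium alpha1 (5 of 9), -0.40 for alpha2delta (3 of 3), -0.32 for calcium beta (3 of 4) and -0.25 for gamma genes (3 of 4). Channel genes are long, with a median span of 128 kb against 20.6 kb over all genes tested. The 18 members over 100 kb had a median log2 fold change of -0.32, and the members of 100 kb or less had -0.08. All 2259 genes over 100 kb had a median of 0.01, and 3.32% of them fell.

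Scn2a (chr2:65620771-65767447 on GRCm38, plus strand), the pore of sodium channels in immature axon initial segments and unmyelinated axons, fell by 29.7% in the paired fit. Its level was 165, 249 and 155 CPM in DMSO replicates 1, 2 and 3 and 97.0, 193 and 118 CPM in the GSK-126 libraries of the same numbers, so the GSK-126 library was lower in every pair, although GSK-126 replicate 2 lay above the lower pair of DMSO libraries. Its log2 fold change was -0.51 (SE 0.116), and its Benjamini-Hochberg adjusted p, by the quasi-likelihood test of edgeR, was 0.0345 with the block and 0.844 without. With any 1 pair left out its log2 fold change ran from -0.57 to -0.38 and its adjusted p from 0.0507 to 0.0803. The tested sodium alpha subunits lie on chromosomes 2 and 15, and Scn1a, Scn2a, Scn3a, Scn7a and Scn9a are a cluster on chromosome 2, where the other 4 did not pass the threshold.

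Scn8a, the alpha subunit of mature axon initial segments and nodes, was at 199.8, 251 and 154 CPM in DMSO and 131, 196 and 155 CPM in GSK-126. The first and second pairs were lower and the third was level, with a log2 fold change of -0.32 (SE 0.126, unadjusted p = 0.0276, adjusted p = 0.227). Scn1a was at 14.1, 15.1 and 10.0 CPM in DMSO and 6.90, 10.2 and 6.82 CPM in GSK-126. It was lower in every pair, and its log2 fold change of -0.72 (SE 0.219, unadjusted p = 0.00672, adjusted p = 0.110) had a wider error than that of Scn2a. Scn3a (-0.30, 95% interval -0.74 to 0.15) and Scn9a (0.01) did not pass. Scn7a encodes an atypical channel that senses the extracellular sodium level and is known from glia. It was at 47.5, 6.61 and 16.6 CPM in DMSO and 44.8, 8.65 and 18.5 CPM in GSK-126, so it was highest in replicate 1 and lowest in replicate 2 of both groups, as the summed astrocyte markers were. Its log2 fold change was 0.12 (95% interval -0.25 to 0.48).

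Scn2b (chr9:45117782-45130070, plus strand) encodes a beta subunit that binds the alpha subunit covalently and raises its number at the surface. Its level was 30.8, 65.6 and 25.1 CPM in DMSO and 23.5, 32.3 and 17.2 CPM in GSK-126. DMSO replicate 2 was the highest library and the groups overlapped, but every pair was lower in GSK-126, and the gene fell by 36.8% (log2 fold change -0.66 with SE 0.160, adjusted p = 0.0451 by edgeR and 0.830 without the block). Leaving out pair 2 took the log2 fold change to -0.45 with an adjusted p of 0.333, and with pair 3 left out the adjusted p was 0.0608. Scn3b, another tested beta subunit, lay between 31.5 and 41.7 CPM in all libraries (log2 fold change 0.04, 95% interval -0.28 to 0.36). Scn4b, the beta subunit linked to resurgent sodium current, had 5, 2 and 9 counts in DMSO and 12, 2 and 17 counts in GSK-126 and was not tested.

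**Figure D3:**
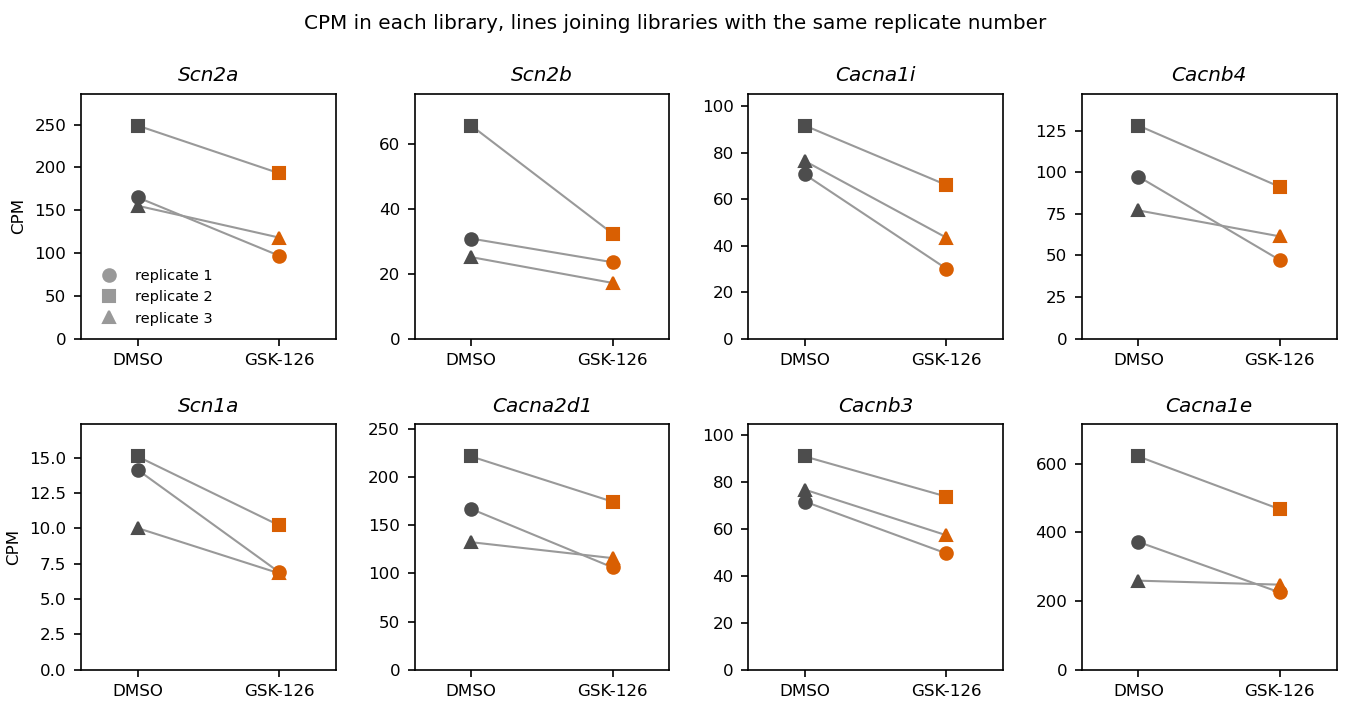
CPM (linear axis from 0) of 8 members in each DMSO and GSK-126 library, with lines joining libraries of the same replicate number. In the 4 panels of the upper row, the members that passed the threshold, every line slopes down and replicate 2 is the highest library of its group. In the lower row Cacna1e is lower in every pair too, but by little in replicate 3, from 259 to 247 CPM.

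Cacna1i (chr15:80287238-80398279, plus strand), a T-type alpha1 subunit that opens near the resting potential, fell by 43.9%, the largest fall among the called members. Its level was 70.7, 91.7 and 76.5 CPM in DMSO and 30.2, 66.2 and 43.5 CPM in GSK-126. All 3 GSK-126 libraries were below all 3 DMSO libraries. The log2 fold change was -0.83 (SE 0.146, 95% interval -1.15 to -0.51), with an edgeR adjusted p of 0.0113, and of 0.824 without the block. It was the one member that also passed with each pair left out in turn, at -1.0 to -0.64 and adjusted p from 0.00409 to 0.0154. The other T-type subunits did not pass. Cacna1g, at 132 to 244 CPM in DMSO and 117 to 201 CPM in GSK-126, had a log2 fold change of -0.08 (95% interval -0.34 to 0.18), and Cacna1h had 0.61 (SE 0.329) at 2.99 to 8.18 CPM. The difference between Cacna1i and the other T-type genes was not itself tested.

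None of the high-voltage alpha1 subunits passed the adjusted threshold. Cacna1a was at 399, 544 and 325 CPM in DMSO and 267, 411 and 324 CPM in GSK-126. It was lower in 3 of 3 pairs, but by very little in the third, with a log2 fold change of -0.33 (SE 0.120, unadjusted p = 0.0183, adjusted p = 0.188). Cacna1e was at 372, 621 and 259 CPM in DMSO and 225, 467 and 247 CPM in GSK-126. It was likewise lower in every pair, with the smallest difference in the third (log2 fold change -0.40, SE 0.126, unadjusted p = 0.00814, adjusted p = 0.122). Cacna1b was at 219, 263 and 177 CPM in DMSO and 170.3, 268 and 175 CPM in GSK-126. Its log2 fold change was -0.12 (SE 0.112, unadjusted p = 0.311, adjusted p = 0.670), with a 95% interval from -0.37 to 0.13. The L-type subunits Cacna1c (0.01, 95% interval -0.27 to 0.30) and Cacna1d (0.03, 95% interval -0.26 to 0.32) had values close to 0, and Cacna1f (0.53, SE 0.624) was too low to place.

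As a share of the summed per-length level of its family, Cacna1i made up 6.46%, 6.10% and 8.11% of the alpha1 transcripts in DMSO and 3.85%, 5.20% and 4.46% in GSK-126. Its share was lower in every GSK-126 library than in every DMSO library. The share of Cacna1a was 29.8% to 31.5% in DMSO and 27.9% to 29.5% in GSK-126, also without overlap but by a narrow margin. The shares of the other main subunits overlapped. The summed alpha1 level was 111, 153 and 95.7 CPM per kb in DMSO and 79.4, 129 and 99.0 CPM per kb in GSK-126. Among sodium alpha subunits Scn2a and Scn8a together made up most of the transcripts. Scn2a held 37.0%, 50.2% and 45.9% in DMSO and 32.0%, 49.1% and 39.9% in GSK-126, so its share, too, was lower in every pair but overlapped between groups. The share of Scn1a was 3.38% to 3.62% in DMSO and 2.60% to 2.96% in GSK-126, without overlap. These shares were not tested, and how often shares of other gene families separate the groups was not counted. Scn7a, which took 2.31% to 25.6% depending on the library, moves all the sodium shares.

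**Figure D4:**
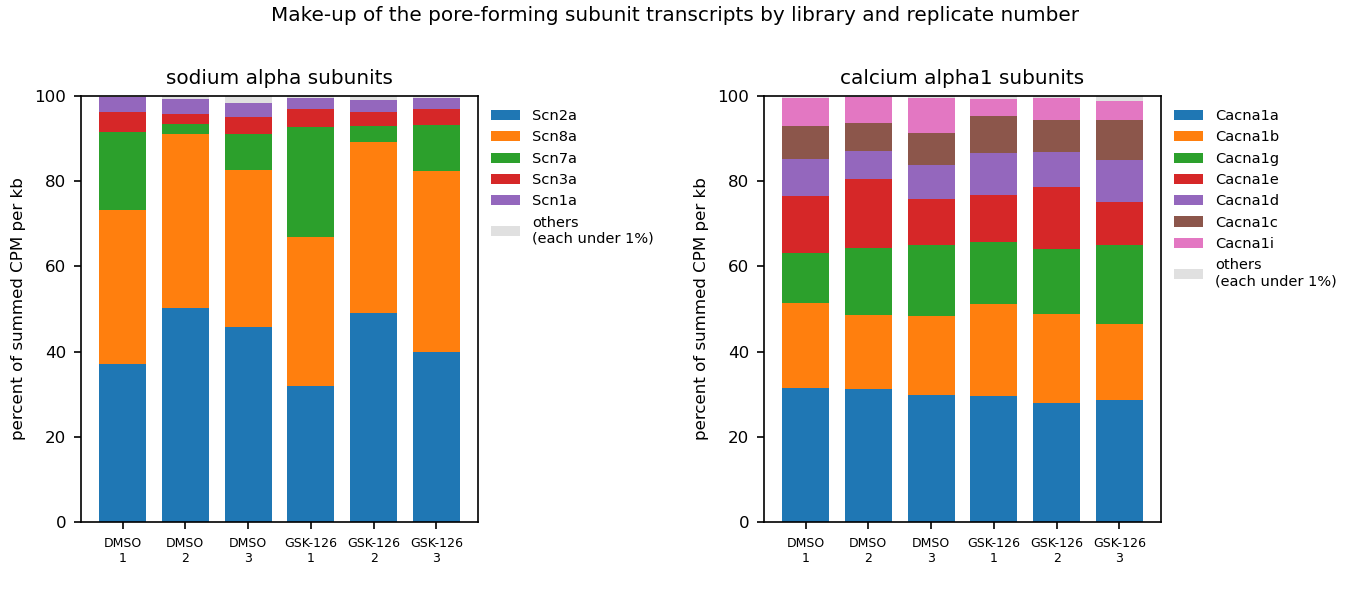
Stacked bars of each sodium alpha (left) and calcium alpha1 (right) subunit as a percent of the summed CPM per kilobase of its family, with 1 bar per library. Cacna1i narrows from 6.10% to 8.11% of the calcium bar in DMSO to 3.85% to 5.20% in GSK-126, and the Scn7a block differs between replicate numbers, from 2.31% in DMSO replicate 2 to 25.6% in GSK-126 replicate 1.

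Cacnb4 (chr2:52428320-52676831, minus strand), the calcium beta subunit mutated in the epileptic and ataxic lethargic mouse, fell by 35.0%. Its level was 97.4, 128 and 77.1 CPM in DMSO and 47.2, 91.2 and 61.5 CPM in GSK-126. Every pair was lower, and the groups overlapped because GSK-126 replicate 2 exceeded DMSO replicate 3. On the log2 scale the fold change was -0.62 with SE 0.141, and the adjusted p by edgeR was 0.0345, or 0.830 without the block. Without pair 1 the adjusted p was 0.0632 and without pair 2 it was 0.0778. Annotated genes on the opposite strand cover 16.0% of its exon bases. The strand setting of the counts was not given in the sources used here, so it is not known whether reads in that overlap were gained or lost.

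Cacnb3, the highest calcium beta subunit per length, was at 71.7, 91.0 and 76.8 CPM in DMSO and 49.6, 73.9 and 57.4 CPM in GSK-126. It was lower in every pair by similar amounts, with a log2 fold change of -0.42 (SE 0.114, unadjusted p = 0.00347, adjusted p = 0.0728). Cacnb1 lay between 19.9 and 27.6 CPM in all libraries (-0.23, 95% interval -0.58 to 0.13), and Cacnb2 between 2.87 and 7.16 CPM (0.67, SE 0.344). The alpha2delta genes all had negative values. Cacna2d1 was at 167, 222 and 133 CPM in DMSO and 106, 175 and 116 CPM in GSK-126, lower in every pair (log2 fold change -0.40, SE 0.117, unadjusted p = 0.00562, adjusted p = 0.0987). Cacna2d2 was at 30.5, 54.0 and 32.1 CPM in DMSO and 16.6, 44.0 and 27.6 CPM in GSK-126, also lower in every pair (-0.45, SE 0.160, unadjusted p = 0.0155, adjusted p = 0.173). Cacna2d3 was at 141, 162 and 126 CPM in DMSO and 99.0, 167 and 109 CPM in GSK-126. It was higher in the second pair, with a log2 fold change of -0.22 (SE 0.123, unadjusted p = 0.0961, adjusted p = 0.410). Cacna2d4, chiefly a retinal gene, had 8, 8 and 6 counts in DMSO and 4, 8 and 1 counts in GSK-126.

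Of the gamma genes, Cacng2 encodes stargazin, the TARP that carries AMPA receptors to granule neuron synapses and is mutated in the stargazer mouse. It was at 90.5, 109.9 and 93.6 CPM in DMSO and 65.6, 93.2 and 78.5 CPM in GSK-126. It was lower in every pair, with a log2 fold change of -0.32 (SE 0.111, unadjusted p = 0.0144, adjusted p = 0.168); genes on the opposite strand cover 5.86% of its exon bases. The TARP genes Cacng4 and Cacng5 were ordered by replicate number in both groups. Cacng4 was at 182, 77.3 and 109 CPM in DMSO and 168, 78.2 and 80.4 CPM in GSK-126 (log2 fold change -0.18, SE 0.118, unadjusted p = 0.149, adjusted p = 0.491). Cacng5 was at 121, 37.5 and 68.9 CPM in DMSO and 146, 38.4 and 68.5 CPM in GSK-126 (0.11, SE 0.115, unadjusted p = 0.38, adjusted p = 0.724). Both were highest in replicate 1 and lowest in replicate 2 of each group, the order of Scn7a and of the summed astrocyte markers, and the part of glial RNA in their levels was not tested. Cacng3 had a log2 fold change of -0.97 (SE 0.537, adjusted p = 0.409) at 0.568 to 2.99 CPM, and Cacng1, the muscle subunit, had 0, 9 and 2 counts in DMSO and 5, 2 and 6 counts in GSK-126.

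Cacng6, Cacng7 and Cacng8 were listed at 0 in all 6 libraries, although Cacng7 and Cacng8 are known as TARPs of the brain. The 3 genes are neighbours on chromosome 7 (chr7:3332955-3435667 on GRCm38), and of the genes before them AU018091 and Nlrp12 held 0 counts and Myadm held 1 count over all libraries together. Myadm is expressed in many tissues. On the other side Tarm1 held 5 and Oscar 15 counts, whereas Ndufa3, the gene after them, held 138 to 395 counts per library. Whether these values reflect expression or the alignment and counting was not tested, so the gamma cluster is reported as listed at 0 and not as silent.

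**Figure D5:**
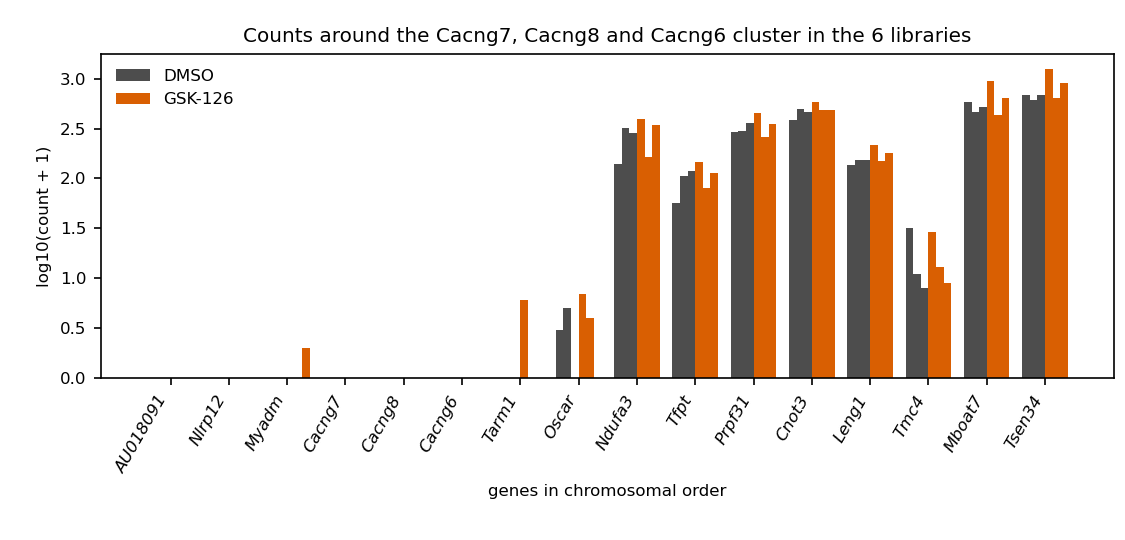
log10(count + 1) of the genes around the Cacng7, Cacng8 and Cacng6 cluster in chromosomal order, with 1 bar per library (DMSO grey, GSK-126 orange). No bar stands at the 3 gamma genes and almost none at the neighbours shown, while Ndufa3, Prpf31 and Cnot3 farther along hold 138 to 585 counts in each library.

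H3K27me3 is lost from many neuronal promoters as the cerebellum matures, and the study lists the promoters that lose it fast, lose it slowly or gain it in vivo. Of the members, 14 were on the lists of loss, 13 of them tested, and 0 on the list of gain. Of all 16685 genes tested, 1034 were on the lists of loss and only 163 on the list of gain. Cacna1c and Cacna2d2 were on both lists of loss and count in each. The list of fast loss held 11 members: Cacna1a, Cacna1c, Cacna1e, Cacna1g, Cacna1i, Cacna2d2, Cacna2d3, Cacnb4, Scn1a, Scn4b and Scn8a. Of its 10 tested members, 9 had a negative log2 fold change, 2 fell (Cacna1i and Cacnb4) and the median was -0.37, beside a median of -0.11 and 10.0% fallen over all 519 tested genes of that list. The list of slow loss held 5 members, among them Cacna1c, Cacna2d1, Cacna2d2 and Cacnb3, and of the 5 members 3 were negative and 0 fell, with a median of -0.40 beside 0.03 and 4.93% over its 568 tested genes. The 16 tested members on none of the lists had a median of -0.05, with 8 negative and 2 fallen (Scn2a and Scn2b), beside -0.00 and 1.00% over 15490 genes. The promoters shown above held 23 CpG dinucleotides for Cacna1i and 40, 27 and 5 for Cacnb4, both on the list of fast loss, and 3 and 9 for Scn2a and 2 for Scn2b, on none of the lists. Other members went the other way. Scn1a, on the list of fast loss, held 5 CpG dinucleotides, and Cacna1b, on none of the lists, held 35. The mark at these promoters in these cultures was not analysed here. The paper measured it in cultures with GSK-126 and reports little effect at promoters that normally lose it during culture. It also reports lower expression of the genes of that class, from RNA-seq of cultures given GSK-126 on the first or the third day. By the code in the table names, the libraries used here are those of the first day. That report is therefore not independent of these data. The promoter class of that report was defined in culture and differs from the in vivo lists used here.

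Genes whose products work with these channels were listed as partners. Of 34 such genes, 31 were tested, 0 rose and 2 fell, beside the 2.23% and 1.38% of all genes given above. A negative log2 fold change was found for 25 of them, beside 50.3% of all genes, and the median was -0.19. Fgf12, an intracellular FGF that binds the sodium channel C-terminus and adjusts inactivation, was at 36.7, 71.3 and 34.6 CPM in DMSO and 23.0, 33.9 and 17.3 CPM in GSK-126, with no overlap between the groups. On the log2 scale the fold change was -0.92 with SE 0.144 (adjusted p = 0.00706 by edgeR and 0.824 without the block), while those of its relatives Fgf11 (0.39), Fgf13 (-0.12) and Fgf14 (-0.26) did not pass. Rims3, of the RIM family of active zone proteins that bind calcium channels, was at 45.0, 75.4 and 38.2 CPM in DMSO and 11.5, 19.1 and 15.3 CPM in GSK-126. The groups did not overlap, at a log2 fold change of -1.76 with SE 0.168 (adjusted p = 0.000568 by edgeR and 0.469 without the block). Rims1, a related gene, was listed at 0 in all libraries. As for the gamma cluster, whether this reflects expression or the alignment and counting was not tested. Of the 11 sodium channel partners 10 had a negative value, as had 8 of the 13 tested calcium channel partners, all 3 calmodulin genes and all 4 genes of the sodium leak channel complex (Nalcn, Unc79, Unc80 and Fam155a, median -0.30), and of the last 2 sets 0 passed. Cacna1s, the alpha1 subunit of skeletal muscle, stayed between 0 and 1.06 CPM and was not tested.

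The summed granule marker level was lower in GSK-126 in every pair and, like the 4 called members, highest in replicate 2 of both groups. Its libraries stood at 3301, 4574 and 3645 CPM in DMSO and 2449, 3574 and 2745 CPM in GSK-126, and the median log2 fold change of the 9 markers was -0.37, with 6 of 9 negative, beside -0.23 over the tested channel members. The part of this shift in the lower channel levels was not tested.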

How the data were processed

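The 6 poly(A) RNA-seq libraries were compared as 2 groups of 3. The deposited values were whole-number counts per gene, 1 table per library, not normalized and not pooled. According to the study's methods and the submitters' processing notes, the authors trimmed paired-end reads with Trimmomatic 0.38, aligned them with STAR 2.7.2b to GRCm38 (mm10) and counted reads over exons with HTSeq; the strand setting was not given in the sources used here. Multiply aligned reads were not assigned, and the 5 summary rows that name no gene (58.4% to 60.9% of fragments) were left out. All 55341 symbols were found in GENCODE M21 (GRCm38), which gave coordinates and union exon lengths. In it 114 symbols cover more than 1 gene ID.

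Genes with at least 1 CPM in at least 3 of 6 libraries (16685 genes) were tested with the edgeR 4.0.16 quasi-likelihood F test in R 4.3.3 (TMM factors 0.993 to 1.01), with the replicate number as a block, and p-values were adjusted by Benjamini-Hochberg over all of them at a threshold of 0.05. The SE is the size of the log2 fold change over the square root of F. The 95% interval uses the total degrees of freedom of the edgeR test, the residual ones plus those borrowed from all genes tested. Pairs were compared on log2 CPM (prior count 2). Alternatives were no block, DESeq2 1.42.0, RLE size factors, filterByExpr, no filter, and each pair or library left out.

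The numbers were taken to pair the libraries, and the study defines a replicate as neurons of pooled litters. Deviations from group means correlated by 0.335, 0.484 and 0.497 for equal numbers and by -0.393 to -0.015 for unequal ones. Since the deviations of a group sum to 0, positive values for equal numbers push the unequal ones below 0, so these add no separate support. Every pair of libraries differed beyond sampling noise (chi-square over its degrees of freedom at least 10.6). The members (chosen by a rule on symbols alone), the partner and marker lists and the tests were set with earlier results of these data known. Counts in every library and full statistics are given for members with an adjusted or unadjusted p under 0.05 and for the 2 highest members per length in each role, and partner genes are named where called. Floors of 3 counts cover counting error only, since reads without molecular identifiers are not independent molecules. Promoter sequences are from RefSeq (GRCm38.p6). Some items, members among them, are not reported here, while counts and medians over the members include every tested member.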

Additional observations from a re-analysis of the deposited data

How the results depend on the processing

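With 3 pairs the replicate block decided every edgeR call. With edgeR and no replicate block, 0 members, 0 partner genes and 0 of all genes were called, and leaving out any 1 library in that fit also gave 0 of each. With the block, 603 genes, 4 members and 2 partner genes were called. DESeq2 with no replicate block called 58 genes, 0 members and 1 partner gene, and DESeq2 with the block called 4 partner genes. With no filter the counts were 1136 genes, 7 members (Cacna1e and Cacna2d1 among those added) and 9 partner genes. RLE size factors called 3 members, losing Scn2b at an adjusted p of 0.0507, and filterByExpr called 4. With 1 pair left out in turn the counts were 658, 241 and 387 genes without pair 1, 2 and 3 (lowest of all leave-outs 0), 2, 1 and 2 members, and 4, 1 and 2 partner genes. Without pair 1 the members called were Cacna1i and Scn2b, without pair 2 Cacna1i alone, and without pair 3 Cacna1i and Cacnb4.

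The direction of the 4 called members was kept under each alternative, with Cacna1i from -1.11 to -0.54, Cacnb4 from -0.89 to -0.39, Scn2a from -0.82 to -0.23 and Scn2b from -0.99 to -0.20 in the leave-outs. Signs turned for members near 0 or of low or replicate-dependent level, none of them called. In the leave-outs the log2 fold change ran from -0.35 to 0.047 for Cacna1b, -0.16 to 0.17 for Cacna1c, -0.13 to 0.21 for Cacna1d, -0.31 to 1.28 for Cacna1f, -0.26 to 0.20 for Cacna1g, -0.63 to 0.23 for Cacng4, -0.50 to 0.68 for Cacng5, -0.063 to 0.20 for Scn3b, -0.79 to 1.06 for Scn7a and -0.91 to 0.69 for Scn9a, and Scn9a was -0.035 with DESeq2 and the block and -0.0056 with no filter. The cause was not tested.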
